A study of Mus musculus with 10 samples.

Results

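Gem encodes a small GTPase of the RGK group, and its transcript was measured in the cochlea of mice of 2 strains, 6 h after noise or a sham exposure. The gene was taken by its symbol in the platform annotation, which gave 1 probe set (92534_at) for 1 of 8252 genes named on the array. Gem was picked with its rise after noise already known, so its noise effects are given as values with standard errors and without a test. The strain comparisons and the difference between the 2 noise effects were not part of that choice and were tested. All mice were females aged 10 weeks, and each array carried cochlear RNA, from microdissected membranous labyrinth, of a pool of 8 mice. B6.CAST mice, which carry a CAST segment around Cdh23 on a C57BL/6J background, gave 2 noise arrays and 2 control arrays. 129X1/SvJ mice, an inbred strain known for resistance to noise damage, gave 3 noise arrays and 3 control arrays, of which the last in each group spell the strain name differently in the labels. Noise mice heard a 10-kHz octave band at 105 dB SPL for 1 h, and control mice sat in the chamber without it.

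RGK proteins (Gem, Rrad, Rem1 and Rem2) are Ras-like GTPases that bind the beta subunits of voltage-gated calcium channels and lower the calcium current through them. Gem also binds calmodulin. It was described as a gene switched on in mitogen-stimulated T cells, and its transcription follows calcium and cAMP signals in several cell types. In the cochlea, voltage-gated calcium channels drive transmitter release at the hair cell synapse.

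Noise array 1 of 129X1/SvJ correlated least with the other arrays (mean of 0.910, where the remaining arrays had 0.943 to 0.955). Gapdh is measured at its 3′ and 5′ ends as a check of RNA quality, and the 3′ signal was 6.94 times the 5′ signal on noise array 1 of B6.CAST and 29.2 times on control array 2 of 129X1/SvJ, with values from 0.790 to 1.40 elsewhere. Cochlear markers were present: Coch, a protein of the spiral ligament, had a signal of at least 12604 on every array, and Ocm, a calcium-binding protein of outer hair cells, at least 1799.7. Atoh1, a transcription factor of hair cell development, was at most 15.0.

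Gem was low in unexposed cochleae and about an order of magnitude higher after noise, in both strains. In B6.CAST the Gem signal was 1517.7 and 731 on the noise arrays, against 95.6 and 62.9 on the control arrays. In 129X1/SvJ it was 939, 1069.8 and 1659.5 on the noise arrays, against 105.4, 86 and 63.8 on the control arrays. Noise and control arrays did not overlap in either strain, and the lowest noise array stood 7.65 times above the highest control array in B6.CAST and 8.91 times in 129X1/SvJ. Such a separation upward was found for 15.8% of tested probe sets in B6.CAST, for 6.35% in 129X1/SvJ, and for 1.4% when all 5 noise arrays were set against all 5 control arrays.

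**Figure D1:**
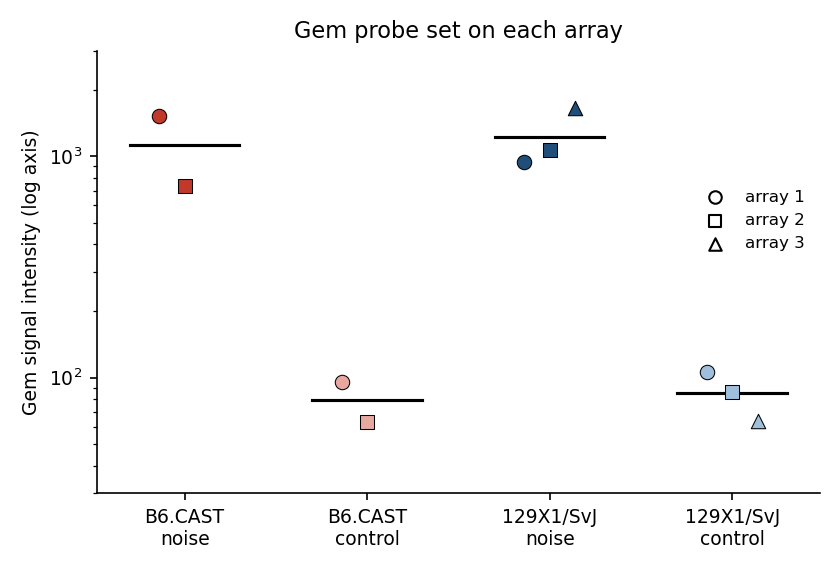
Signal intensity of the Gem probe set (log axis) on each of the 10 arrays, by strain and exposure, with horizontal lines at the group means. The 5 noise arrays lie between 731 and 1659.5, all above the 5 control arrays, which lie between 62.9 and 105.4.

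Mean signals were 1124 ± 556 after noise and 79.2 ± 23.1 in control mice of B6.CAST (SD, n = 2 each), a ratio of 14.2. In 129X1/SvJ they were 1223 ± 384 and 85.1 ± 20.8 (SD, n = 3 each), a ratio of 14.4. As a place on the array, Gem lay above 77.8% to 90.3% of probe sets on noise arrays and above 34.1% to 43.4% on control arrays. Its lowest control signal, 62.9, was above 42.9, the signal to which the filter on low values corresponds, so the gene did not depend on its noise arrays to be tested.

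On the log2(intensity + 16) scale, whose added constant makes the changes of dim genes look smaller, noise minus control was 3.46 ± 0.38 in B6.CAST (SE, n = 2 and 2 arrays) and 3.56 ± 0.31 in 129X1/SvJ (SE, n = 3 and 3 arrays). The mean of both was 3.51 ± 0.24. Of 8695 tested probe sets, 2 had a larger change than Gem in B6.CAST, 4 in 129X1/SvJ and 3 in the mean. In limma, 0.046% of probe sets passed as higher with noise in B6.CAST, 0.46% in 129X1/SvJ and 0.414% in the mean, at an adjusted p under 0.05.

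Between the strains, Gem did not differ beyond the spread between arrays in any of 3 tests. The noise effect of B6.CAST minus that of 129X1/SvJ was -0.10 ± 0.49 (95% interval -1.17 to 0.97, limma adjusted p = 0.997), a comparison in which 0 of 8695 probe sets (0%) passed and the unadjusted p was under 0.05 for 258. In noise-exposed mice, B6.CAST minus 129X1/SvJ was -0.20 ± 0.34 (95% interval -0.95 to 0.56, adjusted p = 0.906), where 1.45% of probe sets passed. In control mice it was -0.10 ± 0.34 (95% interval -0.85 to 0.66, adjusted p = 0.961), where 0.92% passed. These intervals leave room for a difference in the Gem response of about 1 on the log2 scale in either direction. The order of the 4 group means was 129X1/SvJ noise, B6.CAST noise, 129X1/SvJ control and B6.CAST control, and neither neighbouring pair of the same exposure differed beyond its spread.

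Arrays of a group differed in Gem more than for most genes. The residual standard deviation of Gem was 0.44 on the log2 scale, larger than that of 81.5% of probe sets and above the median of 0.281 over 1672 probe sets of like mean. It lay within the range of the 7 noise-raised genes of similar control signal described below, 0.318 to 0.637 with a median of 0.462. The highest array was 2.08 times the lowest among noise arrays of B6.CAST and 1.52 times among its control arrays, and 1.77 and 1.65 times among noise and control arrays of 129X1/SvJ. The higher of the 2 B6.CAST noise arrays is the one with the Gapdh ratio of 6.94. Without it the noise effect of B6.CAST was 2.93, and without the other noise array it was 3.98. In 129X1/SvJ the array that stood apart had the lowest Gem signal of the 3 noise arrays, and the effect without it was 3.76.

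In whole tissue, more Gem RNA per cell and more cells that carry it cannot be told apart. The defining T cell markers Cd3d, Cd3e and Cd3g had signals of at most 25.3 on every array, and the summed signal of 8 of 9 listed T lymphocyte markers was 241.8 to 247.8 after noise and 137 to 260.1 in control mice of B6.CAST, and 132.1 to 386.5 and 131.2 to 219.1 in 129X1/SvJ. Cd28, a costimulatory receptor of T cells, had signals of 61.1 and 75.5 on noise arrays against 4.9 and 5.2 on control arrays of B6.CAST, and 96.3, 42.1 and 44.7 against 24, 24.6 and 21.4 in 129X1/SvJ. Every noise array of Cd28 was above every control array, as for 1.4% of tested probe sets, but Cd28 was dimmer than the filter and was not tested. Cd4, the only T lymphocyte marker tested, had noise estimates of 0.16 in B6.CAST and -0.18 in 129X1/SvJ and did not pass. Neutrophil markers (11 of 12 on the array) had estimates below 0 for 11 of 11 in B6.CAST and above 0 for 11 of 11 in 129X1/SvJ, with 0 past the threshold in limma in either strain. Before adjustment, 7 were under 0.05 in B6.CAST, as were 183 of all 8695 probe sets, and 1 in 129X1/SvJ, as were 1003. Their sum was 2362 to 2650.3 on noise arrays against 5942 to 19771 on control arrays of B6.CAST, and 12373 to 36720 against 3476 to 21114 in 129X1/SvJ, where the ranges overlap. These directions were not particular to neutrophil markers. Erythroid markers had noise estimates above 0 for 0 of 4 in B6.CAST and for 4 of 4 in 129X1/SvJ, with 0 past the threshold in either strain. For 12 macrophage markers the sums were 6811 to 8084 against 7129.7 to 8846 in B6.CAST and 5834 to 7602 against 3652 to 6243 in 129X1/SvJ, and 1 of 10 tested markers, Cd14, passed as higher in the mean noise effect, as 0.414% of all probe sets did. Endothelial markers (8 of 9) gave 7316 to 7437 against 6404 to 6991 in B6.CAST and 7449 to 8053 against 6254 to 8343 in 129X1/SvJ, with 0 of 8 past the threshold in limma, and 1 under 0.05 before adjustment. Supporting cell and tectorial membrane markers, at 23305 to 24773 against 22318 to 30757 in B6.CAST, were at 12920.4 to 19514 against 20440.3 to 22096 in 129X1/SvJ. Gjb2 makes up most of that sum, with 9074.9, 14795.2 and 13047.3 on noise arrays against 13048.5, 15558.9 and 15697.6 on control arrays of 129X1/SvJ. In 129X1/SvJ, 3 of 6 tested markers had estimates above 0, 1 was under 0.05 before adjustment, and 0 passed in limma. In B6.CAST 0 of 6 passed. The part of these cell types in the Gem values was not tested.

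Gem was set beside 7 other genes that passed as higher in the mean noise effect and whose mean log2 value on control arrays lay within 1 of that of Gem. They were chosen on the same contrast, so their noise effects are values and not support. Gem had a larger mean change than 6 of the 7, and Fos, the AP-1 transcription factor subunit whose control level was the nearest to that of Gem, had a larger one at 4.14 ± 0.30. The median change of the 7 was 1.57 in B6.CAST and 2.07 in 129X1/SvJ, against 3.46 and 3.56 for Gem.

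Fos is described first, as the gene nearest to Gem in control level. Fos signals were 965.5 and 571.2 on noise arrays against 65.8 and 49.3 on control arrays of B6.CAST. In 129X1/SvJ they were 7580.7, 2489.3 and 2547.5 against 122.4, 76.4 and 100.1. Both genes separated noise from control in each strain, as 15.8% of tested probe sets did upward in B6.CAST and 6.35% in 129X1/SvJ. Fos on 129X1/SvJ noise arrays lay above all its B6.CAST noise values, while the Gem values of the 2 strains interleaved. The change of Fos was 3.33 ± 0.47 in B6.CAST and 4.95 ± 0.38 in 129X1/SvJ, and in noise-exposed mice Fos was lower in B6.CAST by a log2 difference of -2.29 ± 0.43 (limma adjusted p = 0.022).

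Hbegf, a ligand of the EGF receptor, had log2 changes of 0.52 ± 0.32 in B6.CAST and 2.03 ± 0.26 in 129X1/SvJ, and the neutrophil attractant Cxcl1 had 1.54 ± 0.50 in B6.CAST and 2.93 ± 0.41 in 129X1/SvJ. Socs3, an inhibitor of cytokine signalling, had 1.35 in B6.CAST and 2.07 in 129X1/SvJ. Bcl3, a regulator of NF-kappaB, had nearly equal values as Gem did, 2.23 ± 0.52 in B6.CAST and 2.21 ± 0.43 in 129X1/SvJ. Osmr, a receptor for oncostatin M, had 1.57 in B6.CAST and 1.17 in 129X1/SvJ, and Phf7 had 2.07 in B6.CAST and 0.82 in 129X1/SvJ. Phf7 already differed between the strains without noise. B6.CAST minus 129X1/SvJ was -1.49 ± 0.30 for it in control mice (limma adjusted p = 0.047) and -0.24 ± 0.30 in noise-exposed mice. The differences of the 7 genes ran from -1.62 for Fos to 1.25 for Phf7 (B6.CAST minus 129X1/SvJ), and that of Gem, -0.10, was smaller in size than those of 6 of them.

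Whether these differences were unlike that of Gem was tested by fitting each probe set relative to Gem on the same array. Relative to Gem, the difference of noise effects was -1.52 ± 0.71 for Fos, -1.41 ± 0.74 for Hbegf and 1.35 ± 0.72 for Phf7 (SE), and none of the 7 passed over 8694 probe sets (limma adjusted p = 1.00 for each), where 0.0115% passed. An unadjusted p under 0.05 was found for 126 of the 8694. The values of Gem enter every one of these fits, so all share its spread and are not independent between probe sets. The standard errors and p-values are therefore approximate, and this test cannot decide the question. At this number of arrays the strain pattern of Gem was not shown to be unlike that of the other genes.

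**Figure D2:**
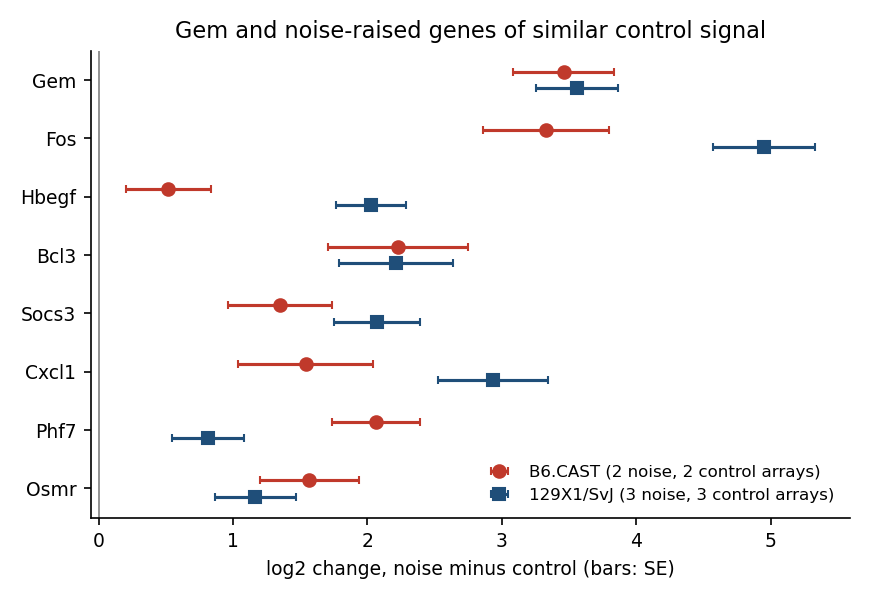
Log2 change after noise (noise minus control) of Gem and the 7 noise-raised genes of similar control signal, in B6.CAST (circles) and 129X1/SvJ (squares), with standard errors as bars. Gem has nearly the same change in both strains, 3.46 and 3.56, while Fos has 3.33 and 4.95.

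The genes nearest to Gem in pattern were sought among 6505 others by the root mean square difference of log2 values over the 10 arrays, each gene first centred on its own mean. Ccl2 (0.557) and Ccl7 (0.662), chemokines that attract monocytes, were nearest, then Bcl3 (0.838), Cxcl1 (0.942), Fos (1.02), the stress gene Gadd45b (1.02), Phlda1 (1.04) and Ier3 (1.05). The median over all genes was 1.83, and the measure is a description, since the arrays share one exposure contrast.

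Ccl2 had the same order as Gem among the noise arrays of each strain. Its signals were 653.7 and 268.9 on noise arrays against 6.0 and 32.1 on control arrays of B6.CAST, and 524.3, 784.1 and 1122.3 against 22.2, 25.2 and 41.5 in 129X1/SvJ. In both strains the noise array with the highest Gem signal also had the highest Ccl2 and Ccl7 signals, and the 129X1/SvJ noise array with the lowest Gem signal had the lowest of both. Ccl2 and Ccl7 were picked as nearest to Gem on these same arrays, so this likeness is a description. The array where Gem was lowest is noise array 1 of 129X1/SvJ, which correlated least with the other arrays. Fos, Gadd45b and Ier3 had their highest 129X1/SvJ noise value on it, as had Bcl3, Cxcl1 and Phlda1. On it Gadd45b was at 3252.1, against 2288.7 and 2092.5 on the other noise arrays, and Ier3 at 5479.6, against 4991.3 and 3825.9. In B6.CAST the order of the noise arrays was not particular to Gem, Ccl2 and Ccl7. Bcl3, Cxcl1, Fos, Gadd45b, Phlda1 and Ier3 were also higher on noise array 1 of B6.CAST, which has the Gapdh ratio of 6.94. Fos had 965.5 there against 571.2, and Ier3 4378 against 3120.8.

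**Figure D3:**
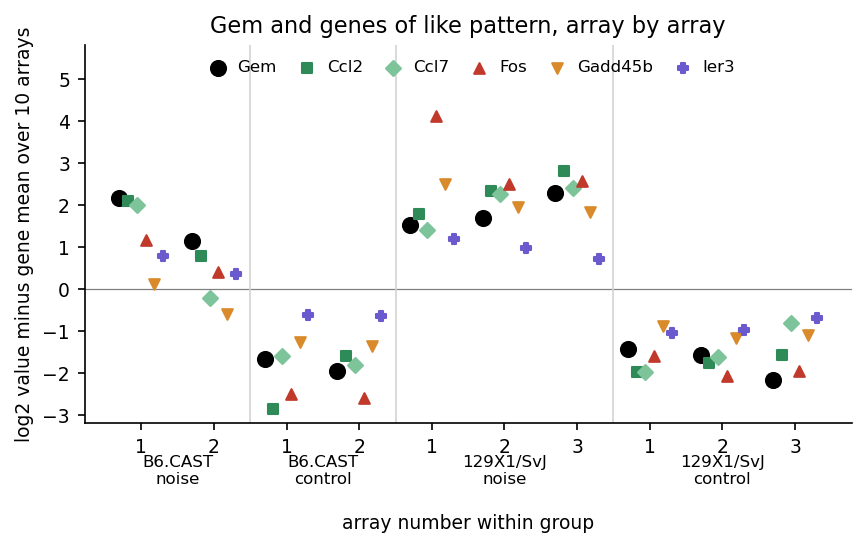
Log2 value minus the mean of the gene over all 10 arrays, for Gem (large circles), Ccl2, Ccl7, Fos, Gadd45b and Ier3 on each array, by group. On the 3 noise arrays of 129X1/SvJ, Gem, Ccl2 and Ccl7 are lowest on the first array, while Fos, Gadd45b and Ier3 are highest there. Bcl3, Cxcl1 and Phlda1, which are not drawn, are also highest there.

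The change of Ccl2 was 3.66 ± 0.51 in B6.CAST and 4.08 ± 0.41 in 129X1/SvJ, beside the 3.46 and 3.56 of Gem. All control signals of Ccl2 and Ccl7 lay below 42.9, the signal of the filter, so unlike Gem both were tested only through their noise arrays, and the size of their changes depends on the added constant. That of Gadd45b was 1.08 ± 0.28 in B6.CAST and 3.14 ± 0.23 in 129X1/SvJ. The strain differences of noise-exposed mice were -0.87 ± 0.46 for Ccl2 (limma adjusted p = 0.581), -2.34 ± 0.25 for Gadd45b (adjusted p = 8.3e-04) and -0.20 ± 0.34 for Gem (adjusted p = 0.906).

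Rrad, the other RGK GTPase measured, had a smaller estimated change than Gem, and it did not pass. Its signals were 167.4 and 183.8 on noise arrays against 119.1 and 117.1 on control arrays of B6.CAST, and 312.9, 293.2 and 260.6 against 124.1, 128.7 and 172.1 in 129X1/SvJ. Noise and control arrays of Rrad did not overlap within either strain. Such a separation upward was found for 15.8% of tested probe sets in B6.CAST and 6.35% in 129X1/SvJ. The log2 change of Rrad was 0.51 ± 0.24 in B6.CAST and 0.86 ± 0.20 in 129X1/SvJ, and the mean was 0.69 ± 0.15 (limma adjusted p = 0.121). Rem1 and Rem2 were not analysed here.

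No tested gene of the voltage-gated calcium channels on which Gem is known to act passed in the mean noise effect (limma, 0 under 0.05 before adjustment), in which 0.46% of all probe sets passed in either direction. The beta subunit Cacnb2, of the kind that RGK proteins bind, had 0.15 ± 0.18. The pore subunits Cacna1b and Cacna1c, of N-type and L-type channels, had 0.33 ± 0.24 and 0.20 ± 0.18, while Cacna1a, Cacna1e and Cacna1s, like both measured low-voltage pore subunits, were dimmer than the filter. Cacna1d, the pore subunit of the hair cell synapse, was not analysed here. Of auxiliary subunits, Cacna2d3 had -0.21 ± 0.14 and Cacng2 0.30 ± 0.21.

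Of 8 other small GTPases that stimuli can induce, 0 passed in limma, with a median change of 0.08 against -0.02 over all 6506 genes. In 1 the unadjusted p was under 0.05: Rasd1, a GTPase induced by glucocorticoids, at 0.92 ± 0.21. The others of smallest p were Rasl11b (0.37), Rhob (0.25) and Rhoq (-0.23). Gem was the only 1 of the 10 tested small GTPases, Rrad included, past the threshold, and its choice had fixed that.

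Gem was also set beside early genes that calcium and cAMP signals are known to induce. The list was chosen with earlier results of these data known, so its counts are a description and not support. Of 24 such genes tested, 6 passed as higher in the mean noise effect (0.414% of all probe sets), 0 as lower (0.046%) and 18 did not pass, with a median change of 0.63. Those with the smallest p were Fos, Ier3 (1.54 ± 0.13), the nuclear receptor Nr4a1 (2.05 ± 0.26) and the phosphatase Dusp1 (0.84 ± 0.11). In B6.CAST, 0 of the 24 had a larger change than Gem, and in 129X1/SvJ 1 did, Fos. The change of 19 of the 24 was smaller in B6.CAST than in 129X1/SvJ, with a median difference of -0.67, against 0.07 over all genes and -0.10 for Gem. None of these differences passed in limma, while 5 had an unadjusted p under 0.05. Several of the genes were highest on 129X1/SvJ noise array 1, which correlated least with the others and had the lowest Gem of its group. Fosb had 2663.6 there against 452.8 and 600.9, and Egr1 2691.7 against 805.7 and 854.4. Others were not, such as Dusp1 with 5385.9 against 5604.6 and 6027.4. How far the median difference rests on that array was not tested. In noise-exposed mice, 2 of the 24 passed as lower in B6.CAST, as 0.575% of all probe sets did, and 0 as higher.

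**Figure D4:**
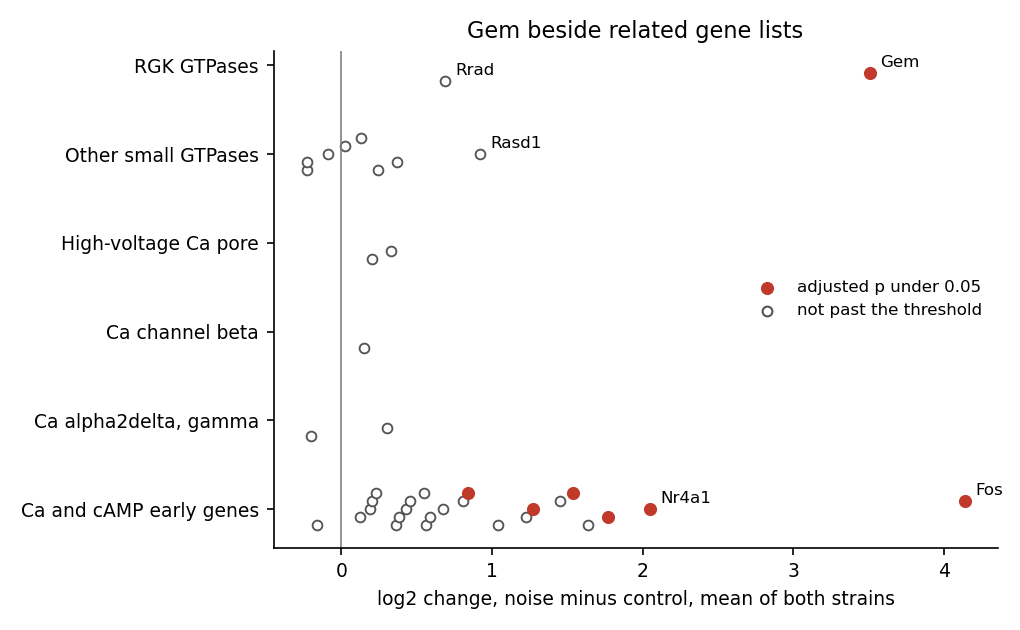
Log2 change after noise, as the mean of both strains, of each tested gene in 6 lists, with filled points for an adjusted p under 0.05. Gem lies at 3.51, with Rrad at 0.69, the calcium channel subunits between -0.21 and 0.33, and Fos at 4.14 among the early genes.

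Gem lies on mouse chromosome 4. Of the 6 nearest genes with a probe set, 3 on each side, 4 passed the filter. Ints8, Esrp1, Runx1t1 and Pip4p2 had mean noise effects of -0.18, -0.03, -0.24 and -0.19, and none passed in limma, in contrast to 3.51 for Gem.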

How the data were processed

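Biotin-labelled cRNA was hybridised to 1-colour arrays, 1 array per pool of mice, per the labels. The authors deposited a linear signal intensity for every probe set. The mean with 2% of values trimmed at each end is 500.3 on all arrays, so each array had been scaled; the software is not given in the sources used here. Of 12488 probe sets, 66 are controls, 10855 have 1 gene symbol, 396 several and 1237 none. Symbols were updated through the GRCm38.p6 RefSeq table (10839 found). No build is named in the deposited table, so no coordinates are given.

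From the deposited intensities, log2(intensity + 16) was quantile normalised, and the controls and the dimmest 30% were dropped, leaving 8695 probe sets. A mean for each of the 4 groups was fitted over all 10 arrays in limma 3.58.1 (R 4.3.3), with moderation along a variance trend; Benjamini-Hochberg adjustment ran over all probe sets, with a threshold of 0.05. For each of 6506 genes the probe set of highest mean was used. Arrays are biological replicates per the labels, and their number limits the precision.

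The members and gene lists were chosen with earlier results of these data known. Some gene lists related to Gem are not reported here. Named genes are Gem, the RGK group, up to 4 list members of smallest p in the mean noise effect, the genes of similar signal, the 8 nearest patterns and the chromosomal neighbours; cell type markers were named after their values were seen, as were T cell and cochlear genes. On simulated data with 8695 probe sets, for the difference of noise effects 17 of 100 changes of 1 and 55 of 100 changes of 2 were recovered. For strain in noise-exposed mice it was 46 and 84 of 100, and in control mice 40 and 84. Simulated probe sets varied independently, and 74 were called for the difference of noise effects against 0 in the data, which eases the adjusted threshold. Gem also varied more than most probe sets, so these rates can overstate what could be seen for it. Same-numbered noise and control arrays deviated from their group means with correlations of -0.389 to -0.150, so the numbers were not taken as pairs. Alternatives covered scaling, pseudocount, filter, variance trend, array weights, the arrays fitted and the replicate block.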

Additional observations from a re-analysis of the deposited data

How the results depend on the processing

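Gem did not pass between strains in any of the alternatives run: the adjusted p of the difference of noise effects lay between 0.961 and 1.00, that of the strain difference between 0.741 and 0.979 in noise-exposed and 0.888 and 0.999 in control mice. Its signs were not fixed: over the 10 fits that leave out 1 array, the difference of noise effects ran from -0.61 to 0.41, the strain difference from -0.71 to 0.31 in noise-exposed mice and from -0.32 to 0.053 in control mice, and with median centring the difference of noise effects was 0.063. The noise effect of Gem ran from 2.93 to 3.98 in B6.CAST, 3.33 to 3.76 in 129X1/SvJ and 3.23 to 3.77 in the mean in those fits. A pseudocount of 64, which shrinks changes of dim genes by construction, gave 2.94, 3.05 and 2.998. Dropping both arrays of high Gapdh ratio leaves 1 B6.CAST noise array, assumed to vary like the other groups; the effect was then 2.90 in B6.CAST, the difference of noise effects -0.68 and the strain difference of noise-exposed mice -0.70. The cause was not tested. With the replicate number as a block, the difference of noise effects was -0.10 and the noise effects were 3.46 in B6.CAST and 3.56 in 129X1/SvJ, as in the fit without it, and no Gem call changed.

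The 7 genes of similar signal became 12 with a pseudocount of 64, 1 when the 2 arrays of high Gapdh ratio were dropped, and 1 to 8 with each array left out, with 1 without B6.CAST control 1, 4 without its control 2 and 1 without its noise 1. The 6 listed genes called beside Gem became 2 with those arrays dropped, and 4 to 8 with each array left out. Counts of called probe sets in the mean noise effect (40) ran from 18 to 47 with each array left out and were 10 with the 2 arrays of high Gapdh ratio dropped. They ran from 0 to 5 in B6.CAST (4), 22 to 46 in 129X1/SvJ (44), 26 to 122 between strains in noise-exposed mice (126) and 23 to 132 in control mice (80). Array weights gave 71 in 129X1/SvJ and 7 in B6.CAST. With the replicate block the strain counts were 44 in noise-exposed mice and 34 in control mice, and in B6.CAST the noise count was 2; with B6.CAST pairs crossed, an alternative chosen after seeing the data, these were 46, 36 and 3.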

Other observations

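Rhoj, a GTPase of the Cdc42 type that was singled out after its values were seen, was the least even of the small GTPases listed with Gem. Its signal was 26.3 and 510.7 on noise arrays against 647.4 and 404.9 on control arrays of B6.CAST, and 322.7, 163 and 62.2 against 75.5, 2.6 and 67.6 in 129X1/SvJ. The low B6.CAST value is on the array with the Gapdh ratio of 6.94 and the highest Gem signal of that strain. In control mice the strain difference of Rhoj, B6.CAST minus 129X1/SvJ, was 3.33 ± 0.95 and did not pass (limma adjusted p = 0.193).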
